A study of Mus musculus with 14 samples.

Results

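The genes described here encode the steps by which granulosa cells (GCs) make and modify sex steroids. They are the cholesterol carrier gene Star, the enzyme genes Cyp11a1, Hsd3b1, Cyp19a1, Hsd17b1, Cyp1b1 and Srd5a1, and the electron donor genes Fdx1, Fdxr and Por. These 10 genes were chosen by name, out of 55414 identifiers in the table of counts, and all 10 were found in it. RNA-seq was performed on GCs of antral follicles in 14 libraries. There were 4 libraries of db/db mice (strain B6.BKS(D)-Leprdb/J), which lack the long form of the leptin receptor, and 4 of their lean controls (CT db). The ob/ob mice (B6.Cg-Lepob/J), which lack leptin, gave 3 libraries, as did the lean controls of that stock (CT ob). All mice were female, the mutants were homozygous and were kept on chow until 12 wk of age, and the controls were lean littermates that the labels give as wild type. Control columns carry the word het in their names, and whether wild type or heterozygote is right was not settled here. No group received a treatment, and both mutations are present in the whole animal, so direct and indirect consequences in GCs cannot be told apart.

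Ovarian steroid synthesis begins when StAR carries cholesterol to the inner mitochondrial membrane, where the side chain cleavage enzyme CYP11A1 turns it into pregnenolone with electrons passed on by ferredoxin reductase and ferredoxin. HSD3B1 turns pregnenolone into progesterone. Theca cells around the follicle make androgens, and the GCs convert them into oestrogens with aromatase (CYP19A1) and raise oestrone to oestradiol with HSD17B1, under the drive of FSH. After ovulation GCs luteinise, and Star and Cyp11a1 then rise while Cyp19a1 is shut down.

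Each library was prepared from about 50 cells, so a library is a small sample of follicle cells and not an average over the ovary. The labels do not say whether the libraries of a group came from separate animals, and the p-values below measure only the spread between these libraries. The totals were 2204686 to 8367593 counts per library, and 3 counts, taken as the detection floor, amounted to 0.369 to 1.30 CPM (counts scaled to a common library size). Levels are given as CPM on library totals scaled by TMM factors, and all 10 genes were above the floor in every library, with 9 to 11837 counts. The protocol has no molecular identifiers, and the floor therefore covers counting error alone. The granulosa markers fixed for the check of cell type (10 genes, Fshr, Inha, Inhba, Amh and Foxl2 among them) summed to 18500 to 29100 CPM in CT db, 19300 to 25600 in db/db, 11000 to 16000 in CT ob and 18300 to 25300 in ob/ob. The sums were thus lowest in CT ob. Gja1 was their largest part, with means of 16890 CPM in CT db, 13580 in db/db, 6072 in CT ob and 11010 in ob/ob. Fshr, Inhba, Inhbb, Fst and Nr5a2 also had their lowest means in CT ob, and Inha in CT db. Amh, Amhr2 and Foxl2 had their highest means in CT ob. The sums of 9 oocyte markers were 68.3 to 1080 CPM in CT ob and 137 to 721 in ob/ob, against 2.81 to 252 in CT db and 5.54 to 65.4 in db/db. CT ob library 68 held 24.45% of its counts on the 18S ribosomal RNA gene, the highest share of the 14 libraries. In bulk samples such as these, fewer cells of a type and less RNA per cell cannot be told apart.

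Promoter windows show where the counted transcripts start, as far as a reference gives it. The RefSeq promoter table (GRCm38.p6), with 300 bases per annotated start, held 8 of the 10 genes in 11 windows. Star and Hsd17b1 were the genes without an entry. The windows of Cyp11a1 and Cyp19a1 that held a match to a motif searched are printed below. These genes were taken because they stand at the head and at the oestrogen end of the pathway and varied most between libraries. Cyp11a1 had 2 annotated starts and Cyp19a1 had 3, and counts per gene cannot say which of them was used. The first sequence is at chr9:57997774-57998073 on the plus strand, the second at chr9:54228865-54229164 and the third at chr9:54193694-54193993, both on the minus strand. Capitals mark matches to the motifs searched (TGACG in Cyp11a1, on the minus strand, and TATAAA in Cyp19a1), and matches that overlap run together.
Cyp11a1, the first start: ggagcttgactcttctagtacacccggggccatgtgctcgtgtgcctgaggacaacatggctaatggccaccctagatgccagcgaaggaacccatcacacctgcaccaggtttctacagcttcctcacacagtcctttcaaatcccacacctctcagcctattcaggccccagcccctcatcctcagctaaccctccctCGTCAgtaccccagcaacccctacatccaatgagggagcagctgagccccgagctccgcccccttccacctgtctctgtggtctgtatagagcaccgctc
Cyp19a1, the second start: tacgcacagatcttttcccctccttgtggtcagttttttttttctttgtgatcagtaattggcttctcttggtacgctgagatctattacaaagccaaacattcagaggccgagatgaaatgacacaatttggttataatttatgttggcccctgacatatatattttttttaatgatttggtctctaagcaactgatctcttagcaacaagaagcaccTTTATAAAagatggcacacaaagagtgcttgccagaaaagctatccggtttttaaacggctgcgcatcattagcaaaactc
Cyp19a1, the third start: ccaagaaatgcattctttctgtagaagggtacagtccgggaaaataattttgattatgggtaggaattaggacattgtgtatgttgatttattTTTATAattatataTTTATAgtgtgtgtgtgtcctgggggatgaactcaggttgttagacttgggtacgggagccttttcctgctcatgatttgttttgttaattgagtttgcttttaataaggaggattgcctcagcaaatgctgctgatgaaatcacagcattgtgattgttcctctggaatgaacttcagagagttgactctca

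Both strands were searched for 4 motifs. AAGGTCA is the core of the site bound by NR5A receptors, and TGACG is the short form of the cAMP response element. AGATAA is a site for factors such as GATA4, and TATAAA is the TATA box. Positions count from the annotated start, with bases before it negative. In Cyp11a1 the TGACG match lay at -50. In the second window of Cyp19a1, TATAAA matched on the plus strand at -29, with an overlapping match on the minus strand at -31. In the third window the matches, both on the minus strand, lay at -157 and -143. The second window of Cyp11a1 and the first of Cyp19a1 held none of the 4 motifs and are not printed. Over all 32851 promoters of the table, 20.8% held TGACG and 13.6% held TATAAA. Hsd3b1 held AGATAA, alone of the 8 genes, as did 11.2% of all promoters. AAGGTCA was present in 0 of the 8 genes and in 4.72% of promoters. A match is a description of letters and not of a bound site.

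Levels of different genes were compared per kilobase of exon, using the union of annotated exons. On that scale Hsd17b1 stood first in all 4 groups, with a mean of 309 ± 124 CPM per kilobase in CT db (SD, n = 4), 382 ± 79.7 in db/db (n = 4), 311 ± 78.5 in CT ob (n = 3) and 429 ± 216 in ob/ob (n = 3). Hsd3b1 came second with 70.5 ± 70.1, 53.4 ± 27.5, 106 ± 98.0 and 80.8 ± 73.4 CPM per kilobase in the same order of groups. The ranges of these 2 genes did not overlap in any group. Cyp1b1, whose enzyme hydroxylates oestradiol to catechol oestrogens, held the third place in all 4 groups, at 52.7 ± 11.2 CPM per kilobase in CT db and 23.3 ± 4.65 in ob/ob. The range of Cyp1b1 overlapped that of Hsd3b1 in 3 groups and lay below it in ob/ob. In CT db, Hsd3b1 was above Cyp1b1 in 1 of 4 libraries, so the order of these 2 genes was not firm there.

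**Figure D1:**
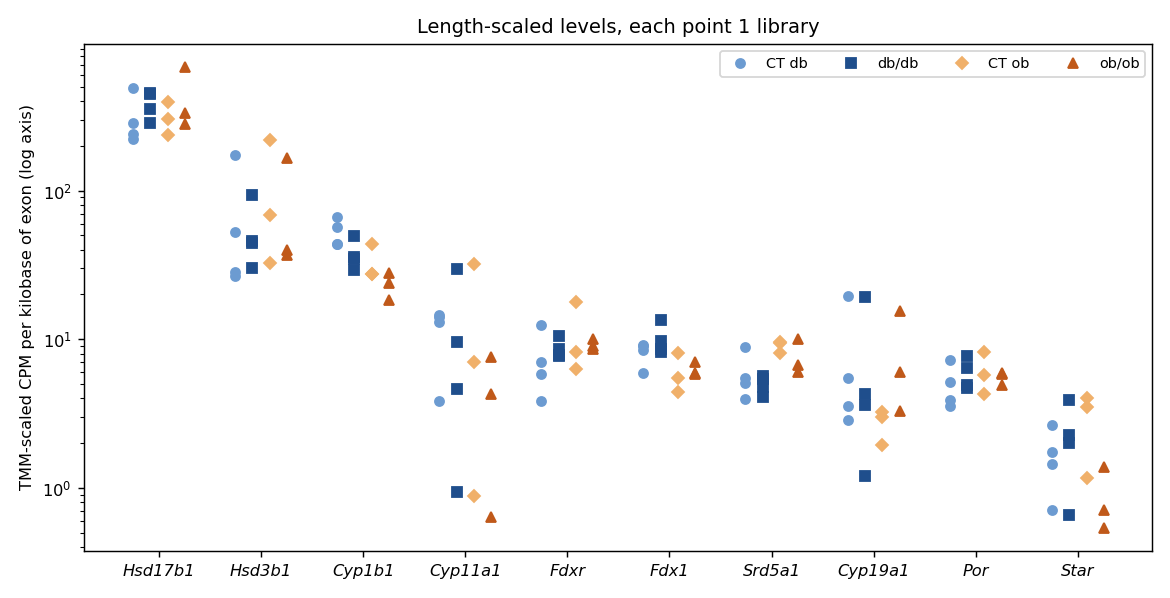
Level of each steroid synthesis gene in TMM-scaled CPM per kilobase of exon (log axis), 1 point per library, coloured by group. Hsd17b1 lies above all other genes in every library, from 222.5 to 676 CPM per kilobase, while Star lies between 0.540 and 4.05 and Cyp11a1 and Cyp19a1 spread widely.

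Below these 3 genes the order was not firm either. Cyp11a1 ranked 4 in CT db, db/db and CT ob, at 11.4 ± 5.07, 11.2 ± 12.7 and 13.4 ± 16.6 CPM per kilobase, and 9 in ob/ob, at 4.20 ± 3.51. Cyp19a1 ranked 10 in CT ob at 2.74 ± 0.699 CPM per kilobase and 5 in ob/ob at 8.25 ± 6.35. Fdx1, Fdxr, Srd5a1 and Por lay between 4.98 and 10.8 CPM per kilobase in all group means. On this scale Star was the lowest gene in CT db, db/db and ob/ob, at 1.64 ± 0.795, 2.21 ± 1.33 and 0.875 ± 0.441 CPM per kilobase. In CT ob it stood just above Cyp19a1 at 2.91 ± 1.53. Of the 5899 exon bases of Star, 3451 overlap exons of the gene Ash2l, where reads may not have been counted, so its place is uncertain. Dividing by the longest transcript instead put Star last in CT ob as well, and left the first 3 places as they were.

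All 10 are protein-coding genes, and reads were counted over their exons. In GRCm39, Star lies at chr8:26296583-26306010 and Hsd17b1 at chr11:100969181-100972336, both on the plus strand. Cyp11a1 lies at chr9:57913694-57935933 on the plus strand and Cyp19a1 at chr9:54072601-54175394 on the minus strand. Some of these counts may be shared with other genes. Of the stretches of 75 bases, the length of a read, that the annotated Star transcripts hold, 53.3% also occur in other genes, nearly all in Ash2l, whose exons overlap those of Star on the opposite strand. The strand setting of the counting is not given in the sources used here, and a read of both genes may not have been counted at all. For Srd5a1 the share was 17.3%, all of it with the non-coding gene Gm17108. It was 3.66% for Cyp19a1, at most 1.45% for Cyp11a1, Hsd3b1 and Por, and 0.0% for Hsd17b1, Cyp1b1, Fdx1 and Fdxr. The values of Star and, to a lesser degree, Srd5a1 are therefore less certain than those of the other genes.

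What most set these genes apart from each other was how much they varied between libraries of the same group. Cyp11a1 had a within-group SD of 1.85 on the log2 CPM scale, larger than that of 99.6% of the 12586 genes tested over all libraries. Cyp19a1 (1.22), Hsd3b1 (1.13) and Star (0.855) had larger SDs than 97.2%, 96.3% and 91.3% of these genes. The electron donors and the other modifying enzymes were steadier, with SDs of 0.317 for Fdx1, 0.325 for Cyp1b1, 0.333 for Srd5a1, 0.376 for Por, 0.478 for Hsd17b1 and 0.532 for Fdxr. The SDs of Fdx1, Cyp1b1 and Srd5a1 were larger than those of 43.0%, 45.0% and 46.8% of the genes tested, near the middle. Hsd3b1 had at least 413 counts in every library, and its SD was still larger than that of 99.7% of the 303 genes of like mean level. Against genes of like mean level, the SD of Fdxr was larger than that of 94.4% and that of Hsd17b1 larger than 80.8%. The same share was 71.3% for Cyp1b1, 69.8% for Fdx1, 69.4% for Por and 49.65% for Srd5a1.

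**Figure D2:**
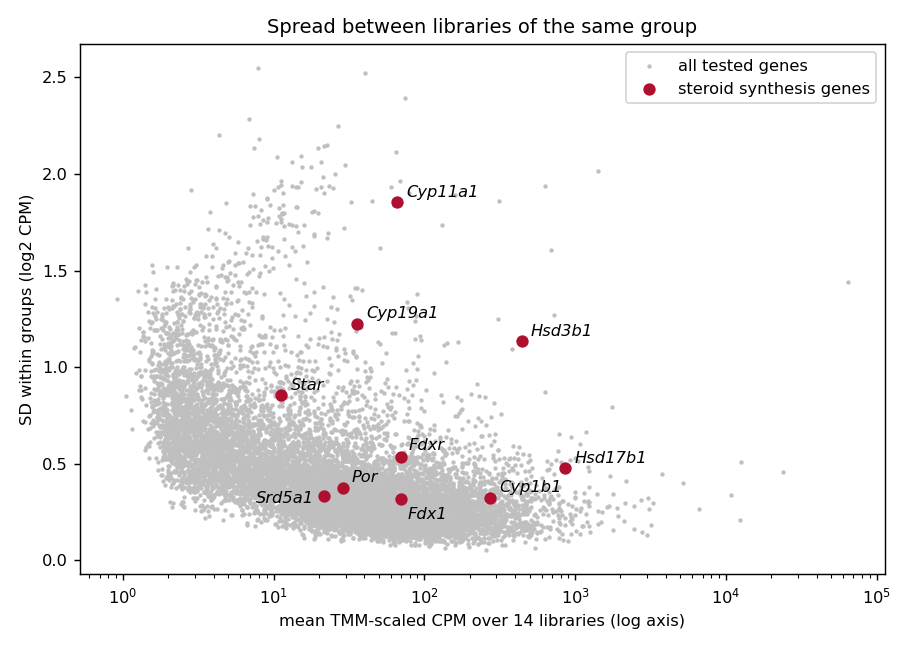
SD of log2 CPM between libraries of the same group, pooled over the 4 groups, against the mean TMM-scaled CPM over 14 libraries (log axis). Each grey point is 1 of 12586 tested genes and each red point a steroid synthesis gene. Cyp11a1 (1.85), Cyp19a1 (1.22) and Hsd3b1 (1.13) stand above most genes of like level, while Srd5a1, Por, Fdx1 and Cyp1b1 lie among them.

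Star, the cholesterol carrier, was measured at 4.22, 15.5, 8.52 and 10.4 CPM in CT db libraries 37, 51, 69 and 75. The db/db libraries 24, 53, 68 and 81 had 23.0, 13.3, 3.90 and 11.9 CPM. The CT ob libraries 60, 65 and 68 had 6.90, 23.9 and 20.7 CPM, and the ob/ob libraries 41, 50 and 106 had 3.18, 4.19 and 8.11 CPM. The ranges of all groups overlapped. CT ob library 65, db/db library 24 and CT ob library 68 were the highest, and 2 of the 3 ob/ob libraries lay below every CT db library.

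Cyp11a1, the side chain cleavage enzyme, had 24.8, 84.3, 94.0 and 91.2 CPM in CT db libraries 37, 51, 69 and 75. The db/db libraries 24, 53, 68 and 81 had 191, 30.1, 6.06 and 61.9 CPM, a span of 31.5 times within a single group. The CT ob libraries 60, 65 and 68 had 5.75, 208.5 and 45.2 CPM, a span of 36.3 times, and the ob/ob libraries 41, 50 and 106 had 4.15, 27.8 and 49.5 CPM. A library at 4.15 to 6.06 CPM occurred in db/db, CT ob and ob/ob. The 2 highest libraries belonged to db/db and to CT ob, whereas the highest ob/ob library lay below 3 of the 4 CT db libraries.

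Hsd3b1, which makes progesterone from pregnenolone, had 166, 312, 1024 and 158 CPM in CT db libraries 37, 51, 69 and 75 and 549, 178, 270 and 261 CPM in db/db libraries 24, 53, 68 and 81. It had 192, 401 and 1279 CPM in CT ob libraries 60, 65 and 68 and 216, 974 and 235 CPM in ob/ob libraries 41, 50 and 106. In CT db, CT ob and ob/ob a single library, between 974 and 1279 CPM, carried the group mean. The related genes Hsd3b2, Hsd3b3 and Hsd3b6, which could share reads with it, had at most 16 counts in any library.

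Cyp19a1, the aromatase, had 19.4, 15.5, 106 and 29.8 CPM in CT db libraries 37, 51, 69 and 75. The db/db libraries 24, 53, 68 and 81 had 19.6, 23.2, 105 and 6.56 CPM. The CT ob libraries 60, 65 and 68 had 10.5, 17.7 and 16.3 CPM, and the ob/ob libraries 41, 50 and 106 had 83.6, 32.8 and 17.9 CPM. CT db, db/db and ob/ob each held 1 library at 83.6 CPM or more, and CT ob held none above 17.7.

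Hsd17b1, which turns oestrone into oestradiol, had 578, 539, 1189 and 691 CPM in the CT db libraries and 857, 1093, 1072 and 686 CPM in the db/db libraries, in the same order. It had 735, 575 and 954 CPM in CT ob and 1639, 805 and 675 CPM in ob/ob. The highest library of CT db and of ob/ob was the one that was also highest for Cyp19a1.

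**Figure D3:**
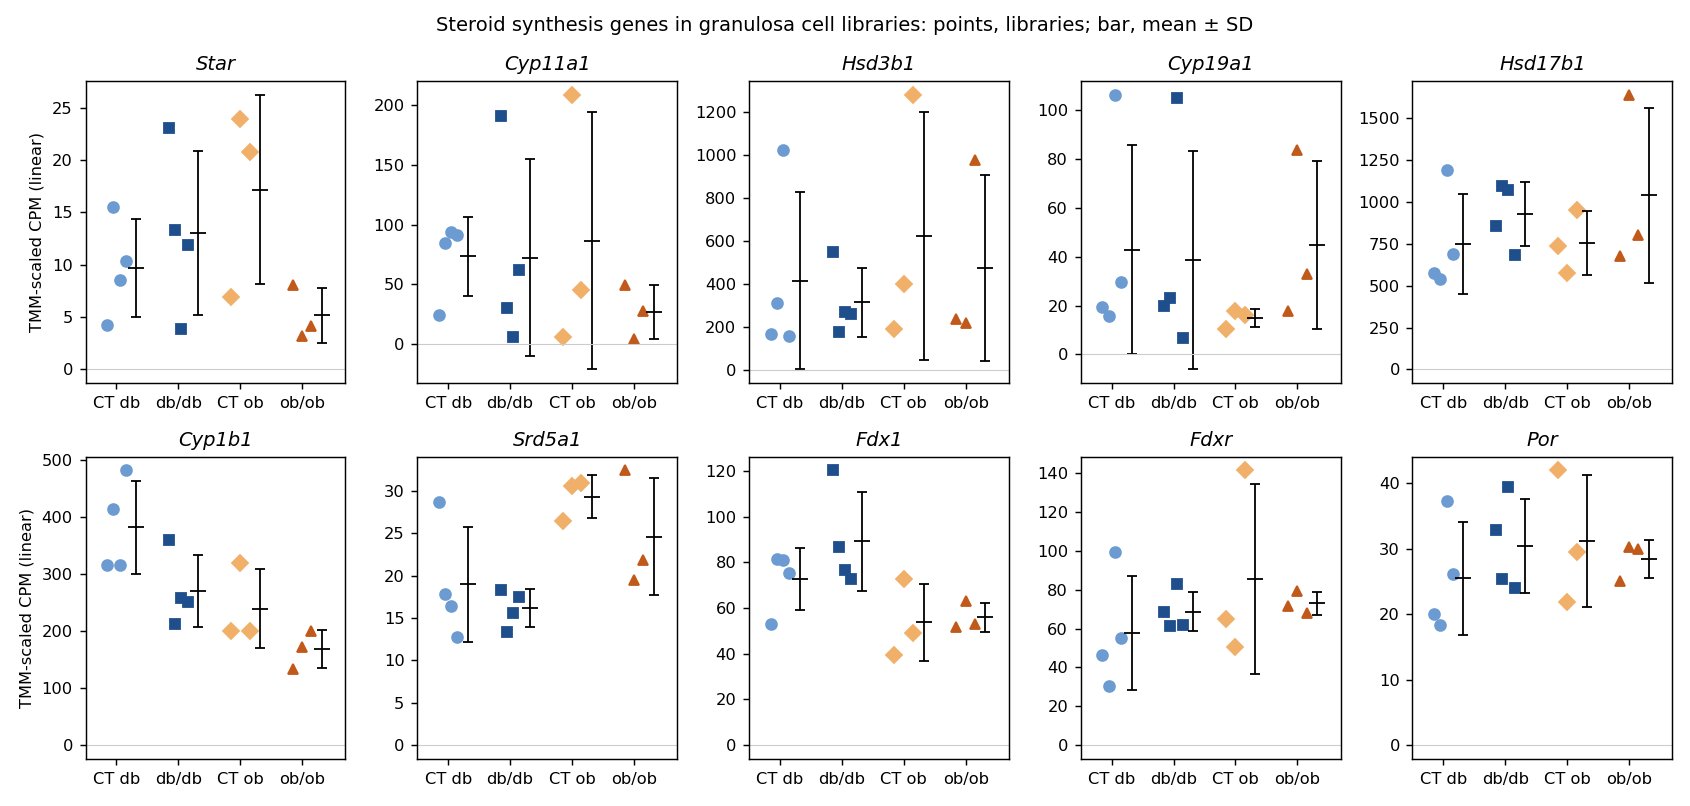
TMM-scaled CPM (linear axes) of the 10 genes in CT db and db/db (4 libraries each) and CT ob and ob/ob (3 each). Points are libraries, in the same order in every panel, and bars give the mean ± SD of the group. Cyp11a1 spans 5.75 to 208.5 CPM within CT ob and 6.06 to 191 within db/db, and Cyp19a1 in ob/ob (17.9 to 83.6) lies just above CT ob (10.5 to 17.7).

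Star and Cyp11a1 went together across libraries. With group means removed, their log2 CPM had a Pearson correlation of 0.892 over the 14 libraries. These differ in depth and in cell composition, and the value is given as a description. Fdx1, the ferredoxin that serves CYP11A1, correlated with Star at 0.671 and with Cyp11a1 at 0.639, whereas Fdxr, its reductase, did so at -0.155 and -0.125, and Fdx1 and Fdxr had a correlation of -0.081. Cyp19a1 and Hsd17b1, both of the oestrogen end, correlated at 0.781, and Hsd17b1 went with Fdxr at 0.708 and with Por, the reductase that supplies aromatase, at 0.629. Between the pairs the correlations were negative, at -0.346 for Cyp11a1 with Cyp19a1 and -0.423 for Cyp11a1 with Hsd17b1. Per length, the ratio of Cyp11a1 to Cyp19a1 ran from 0.0417 in ob/ob library 41 and 0.0486 in db/db library 68 to 8.17 in db/db library 24 and 9.89 in CT ob library 65. Libraries 68 of db/db and 41 of ob/ob had the highest Cyp19a1 and the lowest Star and Cyp11a1 of their groups. The control groups went the other way, and the library highest in Cyp19a1 was also highest in Cyp11a1. It was library 69 in CT db (106 and 94.0 CPM) and library 65 in CT ob (17.7 and 208.5 CPM).

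CT ob library 65 and db/db library 24, the highest in Star and in Cyp11a1, also had the highest sums of theca and luteal markers (528 and 452 CPM). In db/db library 24, 6 theca markers summed to 335 CPM, against 43.3 to 99.1 in the other 13 libraries, mostly through Cyp17a1, the androgen-forming enzyme of theca cells, at 256 CPM. The theca sums were 43.3 to 99.1 CPM in CT db, 71.9 to 335 in db/db, 56.9 to 96.5 in CT ob and 51.9 to 85.8 in ob/ob. The theca marker Insl3 had 16 counts in db/db library 24 and 0 counts in all CT db and CT ob libraries. The other theca markers did not have their highest mean in db/db. There Hhip, Tcf21 and Gli1 lay near or below the floor, at 0.0, 0.554 and 0.234 CPM. Ptch1 had a mean of 62.8 CPM in db/db and in CT ob. In CT ob library 65, 5 luteal markers summed to 451 CPM, with 795 counts of Sfrp4 and 271 of Ptgfr. In db/db library 24, Ptgfr, Sfrp4 and Akr1c18 of that list had 0, 3 and 2 counts. CT ob library 68, next highest in Star at 20.7 CPM, had a luteal sum of 30.6 CPM. The luteal sums were 82.2 to 252 CPM in CT db, 40.7 to 117 in db/db, 25.5 to 451 in CT ob and 20.9 to 57.5 in ob/ob, and Ptgfr had 0 counts in all 3 ob/ob libraries. The sum of both lists, which holds Lhcgr, correlated with Cyp11a1 at 0.858 and with Star at 0.764 with group means removed, and with Cyp19a1 at -0.127. In db/db library 24 the 18S ribosomal RNA gene took 12.83% of the counts, against 1.10% to 1.98% in the other db/db libraries. The same library had the highest sums of 6 leukocyte markers (22.2 CPM) and of 6 markers of stroma and smooth muscle (61.0 CPM) in db/db, where the lowest sums were 2.16 and 6.49 CPM. The part of these cells and of the ribosomal share in the levels of Star, Cyp11a1, Fdx1 and Cyp1b1 was not tested.

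**Figure D4:**
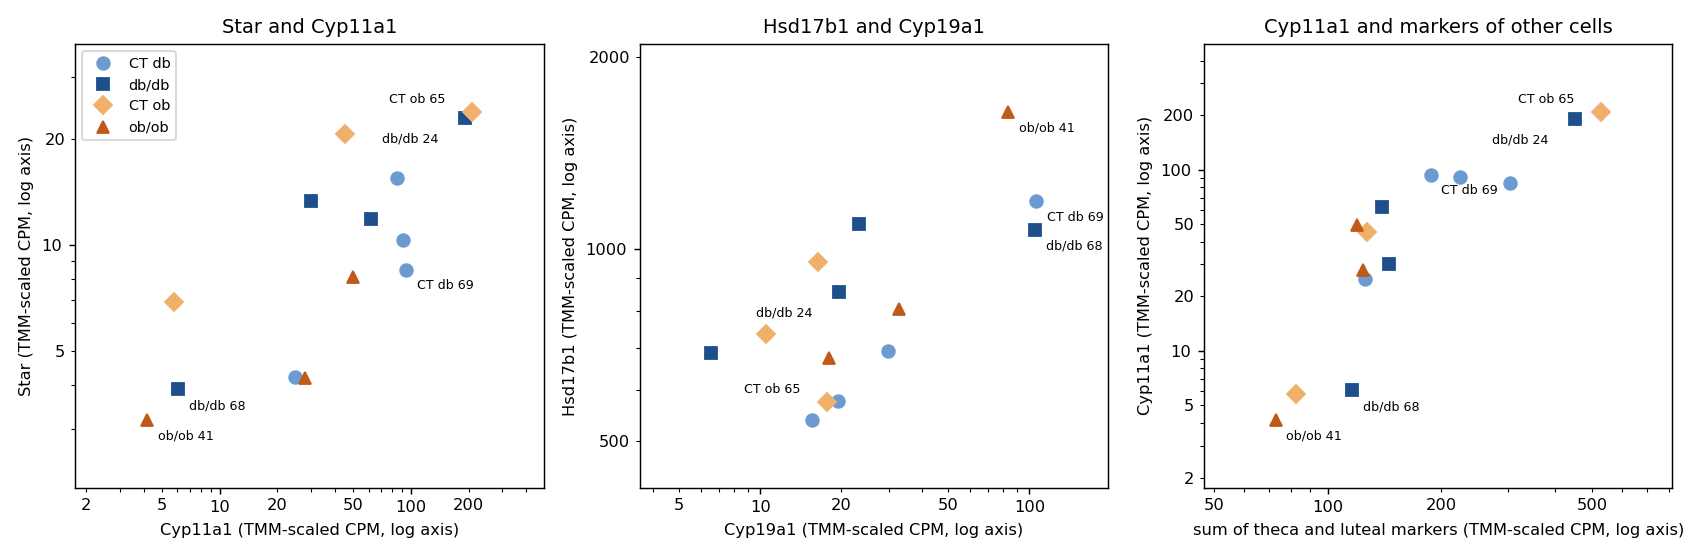
Star against Cyp11a1, Hsd17b1 against Cyp19a1, and Cyp11a1 against the summed theca and luteal markers, all in TMM-scaled CPM on log axes, 1 point per library with 5 libraries named. CT ob library 65 and db/db library 24 have the highest Cyp11a1 (208.5 and 191 CPM) and the highest marker sums (528 and 452 CPM). While ob/ob library 41 and db/db library 68 combine high Cyp19a1 with low Cyp11a1, CT db library 69 is the highest of its group in both.

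For each of the 10 genes, the genes with the most similar pattern were sought among 9216 genes with a mean of 10 CPM or more, by the Pearson correlation of log2 CPM over 14 libraries. Lhcgr, the LH receptor, was among the first for Cyp11a1 (0.861), together with Aldh1a1 (0.862), a retinaldehyde dehydrogenase. Cyp19a1 was followed most closely by Elovl6, a fatty acid elongase (0.953), and Chst11, a chondroitin sulfotransferase (0.916), and these values were 0.948 and 0.947 with group means removed. Star was followed by Axin1 (0.864), a scaffold of the Wnt pathway, and Prss35 (0.851), Hsd17b1 by Pias3 (0.923) and Tmed4 (0.917), and Hsd3b1 by Man2c1 (0.796) and Gsta4 (0.789). The remaining genes had Ap1s2 and Cttnbp2nl (Cyp1b1, 0.897 and 0.881), Hnrnpm and Mov10 (Srd5a1, 0.913 and 0.905), Art4 and Nbea (Fdx1, 0.862 and 0.848), Ttyh3 and Slc25a10 (Fdxr, 0.904 and 0.885) and Slc6a9 and Gla (Por, 0.840 and 0.830). These are the highest of many correlations and were not tested.

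The first question of the design was whether GCs of db/db mice differ from those of CT db. None of the 10 genes passed the threshold (edgeR quasi-likelihood test, Benjamini-Hochberg adjusted p of 0.05 or less), and 0.00884% of the 11317 genes tested did. DESeq2 also called 0 of the 10, and 1 gene had an unadjusted p under 0.05, where 7.59% of all genes did. That gene was Cyp1b1, with 315, 414, 315 and 481 CPM in CT db libraries 37, 51, 69 and 75 and 359, 212, 258 and 251 CPM in db/db libraries 24, 53, 68 and 81. Of the 4 db/db libraries, 3 lay below every CT db library, and library 24 lay within their range. The log2 fold change of Cyp1b1 was -0.50 ± 0.196 (SE), with an adjusted p of 0.597.

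The other 9 genes had log2 fold changes between -0.40 (Hsd3b1) and 0.41 (Star), and 5 of the 10 were above 0. The median over the 10 genes was 0.11, beside 0.01 over all genes tested. The precision differed widely. For Fdx1 the 95% interval was -0.14 to 0.71, whereas for Cyp11a1 it was -1.55 to 1.49 and for Cyp19a1 -1.81 to 1.48, which holds changes of 2-fold in either direction, so such changes were not detectable for these genes. The estimate of Cyp11a1 was -0.03 with all libraries and -1.15 without db/db library 24 (adjusted p = 0.488), and group means were then 32.7 ± 28.0 CPM (n = 3) against 73.6 ± 32.8 in CT db (n = 4). Over all alternatives the adjusted p of Cyp11a1 ran from 0.488 to 0.999. That library also moved Star from 0.41 to -0.0031, Hsd3b1 from -0.40 to -0.82 and Fdx1 from 0.29 to 0.11. Of the 5 luteal markers edgeR called 1, Sfrp4, lower in db/db, and DESeq2 called 3, Sfrp4, Ptgfr and Akr1c18. The median of the 5 was a log2 fold change of -4.11, and their part in these values was not tested. Between these groups 0 of the 10 genes had ranges that did not overlap, where 4.13% of all genes did.

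The same question in the ob model had larger estimates than the db model for Star, Cyp11a1 and Cyp19a1. Star had a mean of 5.16 ± 2.60 CPM in ob/ob and 17.2 ± 9.05 in CT ob (n = 3 each), a log2 fold change of -1.74 ± 0.556 with an adjusted p of 0.561. Cyp11a1 had 27.2 ± 22.7 CPM against 86.5 ± 108 and a log2 fold change of -1.68 ± 1.13 (adjusted p = 0.713). Cyp19a1 had 44.8 ± 34.4 CPM in ob/ob against 14.9 ± 3.79 and a log2 fold change of 1.59 ± 0.534 (adjusted p = 0.561). The lowest ob/ob library for Cyp19a1, 17.9 CPM, lay just above the highest CT ob library, 17.7 CPM. None of the 10 genes passed the test with edgeR or with DESeq2, and 0.0% of the 12425 genes tested passed it with edgeR. An unadjusted p under 0.05 was found for Star and Cyp19a1, 2 of the 10 genes, and for 8.16% of all genes. Cyp19a1 was 1 of 10 genes without overlap between the groups, where 15.7% of all genes had none.

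The 95% intervals of these estimates were -3.01 to -0.47 for Star, -4.27 to 0.91 for Cyp11a1 and 0.37 to 2.81 for Cyp19a1, before any adjustment for the number of genes. CT ob library 65, which stood apart in luteal markers, weighed on some of them. Without it the log2 fold change of Cyp11a1 was 0.11 (adjusted p = 0.983), against -1.68 with it. For Star it was -1.41 (adjusted p = 0.680), and for Cyp19a1 it was 1.75 (adjusted p = 0.676). The direction of Star and of Cyp19a1 was kept when any single library was left out, with ranges of -2.21 to -1.41 and 0.78 to 1.97. Without a filter on low counts, where 359 of 32006 genes passed the threshold, Star, Cyp11a1 and Cyp19a1 were among them. Their log2 fold changes were nearly the same and their standard errors smaller. These were 0.447 for Star, 0.271 for Cyp11a1 and 0.318 for Cyp19a1, against 0.556, 1.13 and 0.534 with the filter. Over all alternatives the adjusted p ran from 0.0252 to 0.944 for Star, from 1.36e-06 to 0.983 for Cyp11a1 and from 5.58e-05 to 0.944 for Cyp19a1.

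In the same comparison Hsd17b1 had a log2 fold change of 0.45 ± 0.360, Cyp1b1 of -0.51 ± 0.253 and Hsd3b1 of -0.41 ± 0.769. The means of Cyp1b1 were 169 ± 33.6 CPM in ob/ob and 239 ± 68.7 in CT ob, and the estimate was of the same size as in the db model. Fdx1 (0.05 ± 0.250), Fdxr (-0.23 ± 0.360), Por (-0.14 ± 0.273) and Srd5a1 (-0.26 ± 0.263) lay closer to 0, with intervals within -1.05 and 0.62. Of the 10 genes 3 were above 0, and the median log2 fold change was -0.24, beside -0.04 over all genes tested. The 10 granulosa markers had a median of 0.68 here and 4 of the 5 luteal markers, those tested, a median of -2.47. With edgeR 0 were called in both lists, with an unadjusted p under 0.05 for 4 granulosa and 2 luteal markers, and DESeq2 called 1 in each, Gja1 higher and Akr1c18 lower in ob/ob. Their part in these values was not tested.

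**Figure D5:**
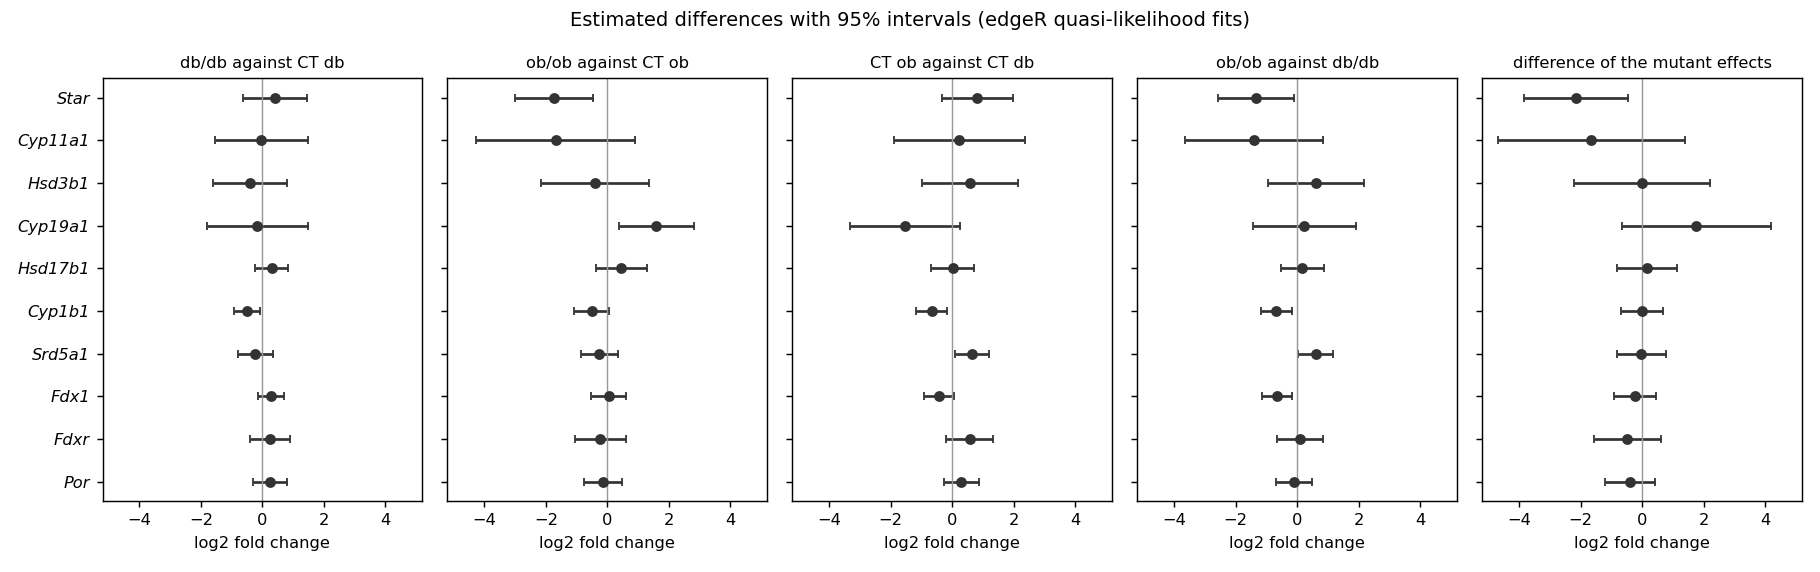
Log2 fold changes (points) with 95% intervals (bars) of the 10 genes in the 5 comparisons, from edgeR quasi-likelihood fits. The intervals are not adjusted for the number of genes. In ob/ob against CT ob, Star (-3.01 to -0.47) and Cyp19a1 (0.37 to 2.81) have intervals clear of 0, and no gene passed the adjusted threshold in any of the 5 comparisons.

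Whether the mutant effect differed between the models was tested as an interaction in a fit of all 14 libraries. It called 0 of the 10 genes and 0.0% of the 12586 genes tested with edgeR, and DESeq2 called 0 of the 10. The difference of the log2 fold changes, ob minus db, was -2.15 ± 0.792 for Star (adjusted p = 0.537), the single gene of the 10 with an unadjusted p under 0.05, where 8.11% of all genes had one. It was 1.76 ± 1.14 for Cyp19a1 (adjusted p = 0.688) and -1.65 ± 1.43 for Cyp11a1 (adjusted p = 0.759). For Cyp11a1 the value was 1.28 when db/db library 24 and CT ob library 65 were both left out. Without a filter on low counts Star, Cyp11a1 and Cyp19a1 passed the threshold here too, and their adjusted p over all alternatives ran from 0.0198 to 0.771, from 0.00026 to 0.975 and from 0.000155 to 0.915. For Cyp1b1 it was -0.0061 ± 0.326 and its 95% interval was -0.70 to 0.69.

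The 2 control groups were compared as well, since any difference between them enters the difference of the mutant effects. Each mutant was compared with the controls of its own model only. Here 6.63% of the 12586 genes passed the threshold with edgeR, and 0 of the 10 steroid synthesis genes did. The gene closest to it was Cyp1b1, with 199, 319 and 200 CPM in CT ob libraries 60, 65 and 68 against 315 to 481 in CT db. The estimate was a log2 fold change of -0.67 ± 0.235 with an adjusted p of 0.0900 in edgeR and 0.0450 in DESeq2. DESeq2 called this gene and no other of the 10, and it called 1563 of the 12586 genes tested. The adjusted p of Cyp1b1 over all alternatives ranged from 0.0273 to 0.246. Without CT ob library 65 the log2 fold change was -0.94 (adjusted p = 0.0432), and that library, the highest of CT ob for Cyp1b1, lay inside the range of CT db. Srd5a1, whose enzyme reduces testosterone and progesterone to their 5-alpha forms, had 26.4, 30.6 and 30.9 CPM in CT ob and 28.7, 17.9, 16.5 and 12.8 CPM in CT db libraries 37, 51, 69 and 75. The log2 fold change was 0.63 ± 0.259 (adjusted p = 0.137), and 0.90 without CT db library 37 (adjusted p = 0.0339, and 0.0339 to 0.290 over all alternatives).

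Cyp19a1 had 14.9 ± 3.79 CPM in CT ob and 42.8 ± 42.8 in CT db, with a log2 fold change of -1.53 ± 0.843 (adjusted p = 0.255). Without CT db library 69, at 106 CPM, the difference was -0.55, and without a filter on low counts Cyp19a1 passed the threshold (adjusted p from 8.97e-07 to 0.679 over all alternatives). An unadjusted p under 0.05 was found for 2 of the 10 genes, Cyp1b1 and Srd5a1, and for 26.9% of all genes. The ranges overlapped for all 10 genes, while 21.2% of all genes had ranges that did not overlap. Star (0.81 ± 0.545), Hsd3b1 (0.59 ± 0.732) and Fdxr (0.57 ± 0.355) had positive log2 fold changes, and Fdx1 a negative one (-0.43 ± 0.231). The comparison of ob/ob with CT ob rests on the same CT ob libraries, so its value for Cyp19a1 (1.59) and the value here (-1.53) are not independent of each other. Of the 10 granulosa markers, edgeR called 2 lower in CT ob, and DESeq2 called 3 lower and 1 higher, with a median log2 fold change of -0.58 in edgeR. The 9 oocyte markers had a median of 2.22, with 0 called by edgeR or DESeq2 and an unadjusted p under 0.05 for 5 with edgeR. The sums of 6 endothelial markers were 22.8 to 40.9 CPM in CT ob and 4.50 to 11.3 in CT db and did not overlap. The part of these cells in the differences between the controls was not tested.

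Between the mutants, which share no library with the control groups, the genes with lower within-group spread were the ones that separated. Fdx1 had 63.3, 52.8 and 51.8 CPM in ob/ob libraries 41, 50 and 106 and 120, 86.9, 76.6 and 72.8 CPM in db/db libraries 24, 53, 68 and 81. Cyp1b1 had 172, 201 and 134 CPM in ob/ob, all below the db/db libraries at 212 to 359 CPM. Srd5a1 had 19.5, 21.9 and 32.4 CPM in ob/ob, all above the db/db libraries at 13.3 to 18.3 CPM. These 3 of the 10 genes had no overlap between the groups, where 9.91% of all genes had none. Their log2 fold changes were -0.67 ± 0.230 for Fdx1 (adjusted p = 0.402), -0.68 ± 0.235 for Cyp1b1 (adjusted p = 0.407) and 0.60 ± 0.262 for Srd5a1 (adjusted p = 0.560).

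None of the 10 genes passed the threshold in edgeR or DESeq2 in this comparison, and 0.0159% of the 12586 genes passed it in edgeR. Without a filter on low counts Cyp11a1 did, with a log2 fold change of -1.36 ± 0.232, against -1.42 ± 1.05 with the filter. Its adjusted p over all alternatives ran from 9.73e-07 to 0.977. An unadjusted p under 0.05 was found for 4 of the 10 genes (the 3 above and Star, at -1.34 ± 0.578) and for 8.18% of all genes. The same 3 genes differed in the same direction between the 2 control groups, at -0.43, -0.67 and 0.63, and the 2 models are separate mouse stocks, so mutation and stock cannot be told apart. The 9 oocyte markers moved with this contrast, with a median log2 fold change of 3.48, an unadjusted p under 0.05 for 9 of 9 with edgeR and 0 called by edgeR or DESeq2, and their part in these values was not tested.

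The wider pathway was examined in 4 lists. Among 36 other steroid enzymes, 35 were in the table and 11 to 13 passed the filter on low counts. With edgeR 0 were called in the db model, the ob model, the interaction or between the mutants, with an unadjusted p under 0.05 for 4, 3, 1 and 1 of them, and 1 was called lower in CT ob against CT db. DESeq2 called Akr1c18 lower in both mutants than in their controls, 2 genes between the controls, 1 between the mutants and 0 in the interaction. The gene called by both tools between the controls was Akr1c14, a hydroxysteroid dehydrogenase that inactivates dihydrotestosterone and dihydroprogesterone, at 604 ± 155 CPM in CT ob and 1250 ± 137 in CT db (log2 fold change -1.05 ± 0.239, adjusted p = 0.0247 with edgeR). Akr1c18, which degrades progesterone in the corpus luteum, had 0.753 ± 0.544 CPM in db/db against 12.8 ± 16.5 in CT db and 0.695 ± 0.791 in ob/ob against 12.8 ± 15.5 in CT ob. Its adjusted p was 0.382 and 0.539 with edgeR and 0.00520 and 0.00867 with DESeq2, and both mutant groups lay at or near the detection floor. Cyp17a1 had 11.9 ± 9.39 CPM in ob/ob and 75.6 ± 120 in db/db, where library 24 alone had 256 CPM (adjusted p = 0.614).

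Other enzymes named by the rule included Hsd17b12, which acts on oestrone and on fatty acids, at 113 ± 36.6 CPM in db/db and 164 ± 11.8 in CT db (adjusted p = 0.597). Hsd17b3, which makes testosterone, was low, at 2.71 ± 1.28 CPM in CT db, 4.20 ± 2.48 in db/db, 9.29 ± 5.46 in CT ob and 5.86 ± 2.42 in ob/ob. Its smallest adjusted p with edgeR was 0.0708, in CT ob against CT db, where that of DESeq2 was 0.0351. Akr1c13 had 8.12 ± 6.37 CPM in ob/ob and 0.742 ± 0.528 in db/db (adjusted p = 0.322 with edgeR and 0.0358 with DESeq2).

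Of 16 genes of cholesterol transfer to mitochondria and of redox partners, 14 were tested. With edgeR 1 was called, again between the controls, and 0 in the other 4 comparisons, where an unadjusted p under 0.05 was found for 1 gene between the mutants and for 0 in the rest. DESeq2 also called 0 in those 4, and between the controls it called Stard3 higher and Cyb5a and Pgrmc1 lower in CT ob. The gene called by edgeR was Stard3, a carrier of cholesterol on late endosomes, at 35.8 ± 10.8 CPM in CT ob and 17.3 ± 3.10 in CT db (log2 fold change 1.05 ± 0.265, adjusted p = 0.0332). Cyb5a, the cytochrome b5 that assists steroid P450 enzymes, had 921 ± 195 CPM in ob/ob and 1537 ± 162 in db/db (adjusted p = 0.348). In the db model the genes with the smallest p were Cyb5r3 and Pgrmc1, with log2 fold changes of 0.21 and -0.39. In the ob model they were Stard4 and Vdac1, with 0.81 and -0.35.

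Of 20 transcription factors of steroidogenic genes, 17 to 19 were tested and 0 were called by edgeR in any comparison, with an unadjusted p under 0.05 for 0 in the db model, 1 in the ob model, 6 between the controls, 1 between the mutants and 0 in the interaction. DESeq2 called 1, Esr2, lower in CT ob than in CT db, and 0 in the other comparisons. Nr5a2, the receptor LRH-1 that binds the promoters of several of the genes described here, had 355 ± 96.7 CPM in db/db and 248 ± 84.6 in CT db (adjusted p = 0.675). Esr2, the oestrogen receptor of GCs, had 400.2 ± 91.8 CPM in ob/ob and 273 ± 22.2 in CT ob (adjusted p = 0.604), and 430 ± 78.1 in CT db (adjusted p = 0.0663 with edgeR and 0.0197 with DESeq2 for CT ob against CT db). Foxl2 had 113 ± 25.9 CPM in CT ob and 76.6 ± 20.6 in CT db (adjusted p = 0.118).

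Of 14 genes of gonadotropin and cAMP signalling, 10 to 12 were tested. With edgeR and with DESeq2, 1 was called between the controls and 0 in the other 4 comparisons, where an unadjusted p under 0.05 was found with edgeR for 1 gene in the ob model and 1 in the interaction. Fshr, the FSH receptor, was the gene called lower in CT ob than in CT db, at 82.3 ± 42.4 against 271 ± 66.9 CPM (log2 fold change -1.72 ± 0.349, adjusted p = 0.0163). In ob/ob it had 171 ± 32.8 CPM, a log2 fold change of 1.05 ± 0.393 from CT ob with an adjusted p of 0.584, and all 3 libraries lay above those of CT ob. Cyp19a1 had the same order of group means in the ob model. Fshr is itself one of the granulosa markers, whose sums were lowest in CT ob, and their part in these values was not tested. Lhcgr had 11.8 ± 11.6 CPM in db/db and 26.9 ± 27.6 in CT db (adjusted p = 0.724), and ran with Cyp11a1 between libraries as given above.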

How the data were processed

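RNA-seq of pooled mouse GCs was analysed from the deposited table of counts, which the authors made without normalization from single reads of 75 bases. The study's methods name cutadapt 1.18, STAR 2.7.10a on GRCm39 and featureCounts 2.0.1, whereas the submitters' processing notes name Trim Galore 0.6.2, HISAT2 2.1.0 and GRCm38. The identifiers are those of a GRCm39 annotation, and 98.8% were found in GENCODE vM39, which gave symbols and exon lengths. Strand and the treatment of multimapping reads are not given in the sources used here. Columns were assigned to groups by name. The genes and lists were chosen with earlier results of these data known.

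Genes were kept by filterByExpr (minimum count 10, minimum total 15) and tested with edgeR 4.0.16 (TMM, quasi-likelihood) in R 4.3.3. The db model and the ob model were fitted alone, and the other 3 comparisons came from 1 fit of the 14 libraries. Genes were called at 0.05 after Benjamini-Hochberg adjustment over all genes tested, and all tests were two-sided. Log2 CPM used a prior count of 2. The fits were tested on simulated data. Alternatives were DESeq2 1.42.0, other scalings and filters, a robust fit, other samples fitted, downsampling, no 18S RNA, other gene lengths, a prior count of 0.5 and leaving out each library, and, chosen after seeing the data, leaving out db/db library 24 and CT ob library 65 together and counting DESeq2's calls in the wider lists, whose genes were named after their values were seen. Genes named beyond the 10 were those called, Hsd17b3, the 2 with the smallest p of each list and comparison, and the 2 of most similar pattern, and not all are printed. 1 named gene is not reported here. Limits set by depth and group size stand beside the results.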

Additional observations from a re-analysis of the deposited data

Results flagged for a closer look

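In CT db, Cyp11a1 had 84.3 to 94.0 CPM in 3 libraries and 24.8 CPM in library 37. The gap of the lowest library to the next was 0.919 of the range of the group, above the critical value of 0.829 for 4 libraries. Of the 20 sets of 4 libraries examined (10 genes in CT db and in db/db), this was the only one past that value, and chance flags about 1 in 20. Library 37 was also the lowest of CT db for Star (4.22 CPM) and Fdx1 (52.9 CPM) and the highest for Srd5a1 (28.7 CPM). For Cyp1b1 it was level with library 69, both at 315 CPM. The 18S ribosomal RNA gene took 8.12% of the counts of library 37, against 1.61% to 4.69% in the other CT db libraries. This library had the lowest luteal sum (82.2 CPM) and the lowest theca sum (43.3 CPM) of CT db. The part of these cells and of the ribosomal share in these values was not tested. Groups of 3 libraries were not examined in this way.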

How the results depend on the processing

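No paired analysis was possible because the column names carry no replicate number of the labels. Of 1096 log2 fold changes recomputed under an alternative, 1001 kept their direction and their side of the threshold, 82 had the opposite direction and 13 came past the threshold. The count of genes called out of the 10 stayed at 0 in the db model under every alternative run. Without a filter on low counts it was 3 in the ob model (Star -1.66, Cyp11a1 -1.62 and Cyp19a1 1.67), 2 between controls (Cyp19a1 and Cyp1b1), 1 between mutants (Cyp11a1) and 3 for the difference of the mutant effects (Star, Cyp11a1 and Cyp19a1), with nearly the same log2 fold changes as with the filter. The standard errors of these genes were smaller in that setting than with the filter. That setting called 359 genes in all in the ob model, where the filtered fit called 0, and the cause was not tested. It called 1727 of 34753 genes between controls, 535 between mutants and 329 for the difference of the mutant effects. Between controls 1 gene, Cyp1b1, was called by DESeq2 and also without db/db library 24 and CT ob library 65, and leaving out single libraries gave 0 to 1 (Srd5a1 without CT db library 37, Cyp1b1 without CT ob library 65). DESeq2 called 44 genes in all in the db model, 86 in the ob model, 72 between mutants and 72 for the difference of the mutant effects, against 1, 0, 2 and 0 with edgeR. Between controls DESeq2 called 1563 genes in all, against 834 with edgeR.

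Opposite directions occurred in 26 of 50 comparisons of single genes. With single libraries left out, the log2 fold changes in the db model ran from -1.15 to 0.35 for Cyp11a1, -1.40 to 0.80 for Cyp19a1, -0.82 to 0.55 for Hsd3b1, -0.37 to 0.036 for Srd5a1 and -0.0031 to 0.75 for Star. In the ob model they ran from -2.44 to 0.11 for Cyp11a1, -0.13 to 0.33 for Fdx1, -0.49 to 0.34 for Fdxr, -0.031 to 0.69 for Hsd17b1, -1.47 to 0.68 for Hsd3b1 and -0.33 to 0.14 for Por. Between controls they ran from -1.58 to 0.79 for Cyp11a1, -0.0091 to 0.95 for Fdxr, -0.20 to 0.32 for Hsd17b1 and -0.49 to 1.53 for Hsd3b1. Between mutants they ran from -0.59 to 1.47 for Cyp19a1, -0.33 to 0.40 for Hsd17b1, -0.48 to 1.01 for Hsd3b1 and -0.19 to 0.057 for Por. For the difference of the mutant effects they ran from -2.40 to 0.16 for Cyp11a1, -0.15 to 0.26 for Cyp1b1, -0.42 to 0.042 for Fdx1, -0.84 to 0.11 for Fdxr, -0.34 to 0.39 for Hsd17b1, -1.07 to 1.10 for Hsd3b1 and -0.30 to 0.12 for Srd5a1. Without db/db library 24 and CT ob library 65 the opposite directions were -0.0031 for Star and 0.046 for Cyp19a1 in the db model, 0.11 for Cyp11a1 in the ob model, -1.58 for Cyp11a1 between controls, and, for the difference of the mutant effects, 1.28 for Cyp11a1, -0.044 for Hsd17b1, 0.43 for Cyp1b1, 0.067 for Srd5a1 and 0.22 for Fdx1. The remaining opposite values lay near 0. They were -0.053 for Fdx1 in the ob model after downsampling, and for Hsd17b1 between controls -0.018 with library size alone, -0.029 without a filter and -0.0023 with the 7 control libraries alone. For the difference of the mutant effects they were -0.0020 with upper quartile scaling and -0.063 after downsampling for Hsd3b1, 0.0052 with RLE, 0.078 without a filter, 0.0052 with DESeq2 and 0.0057 without 18S RNA for Cyp1b1, and 0.0060 with library size alone, 0.062 without a filter and 0.014 after downsampling for Srd5a1.

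With 3 or 4 libraries of about 50 cells a group, the standard errors of the 10 genes ran from 0.195 to 0.754 in the db model and from 0.250 to 1.13 in the ob model, and an adjusted p above the threshold does not show that levels were equal. Dividing by coding length raised all levels per kilobase and changed their order, with Star above Por in db/db. Star, with the least counts, was limited most by depth and by its overlap with Ash2l.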
